A study of Mus musculus with 4 samples.

Results

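Dendritic cells and Langerhans cells of the skin were followed through 10 genes in the RNA-seq of bleomycin (BLM) treated mice: Cd207, Epcam, Flt3, Itgax, Zbtb46, Xcr1, Irf8, Batf3, Ccl17 and Ccl22. The genes were chosen by name as markers of these cells, with earlier results of these data known. All 10 were found by symbol among the 24441 genes of the deposited table. The skin came from wild type (WT) and GSDMD-/- (GSDMD KO) female C57BL/6 mice, labelled as 8 weeks old, with 2 libraries per genotype. All received BLM, a cytotoxic antibiotic that causes skin fibrosis, under the skin every other day for 28 days, and no library without BLM was analysed here. The KO mice were made with Cas9 in fertilized eggs, so the deletion is not limited to 1 cell type, and the RNA came from whole lesional skin. Values are FPKM, the fragments of a gene scaled to its length and to the depth of the library, and n = 2 in each group.

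Langerhans cells are the antigen-presenting cells of the epidermis. They carry langerin (Cd207) and the adhesion molecule EpCAM (Epcam), which also marks hair follicle and other epithelial cells. The dermis holds conventional dendritic cells, which depend on the growth factor receptor Flt3 and carry the transcription factor Zbtb46. Their type 1 subset depends on Irf8 and Batf3 and carries the chemokine receptor Xcr1. Activated dendritic cells and some macrophages secrete Ccl17 and Ccl22, the ligands of Ccr4, a chemokine receptor of T cells. In bulk skin RNA, fewer cells of a type and less RNA per cell cannot be told apart.

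The 4 libraries differed in tissue makeup, and KO replicate 2 stood apart. Gsdmd, the targeted gene, had WT values of 14.0 and 18.2 FPKM and KO values of 3.53 and 2.26. The summed FPKM of 5 leukocyte genes (Ptprc, Coro1a, Laptm5, Cd53, Cd52) was 355 and 416 in WT, 162 in KO replicate 1 and 25.4 in KO replicate 2. For 6 fibroblast genes the sums were 269 and 180 in WT, 422 in KO replicate 1 and 24.9 in KO replicate 2, and the sums of 4 endothelial genes were likewise lowest in KO replicate 2, at 6.73 against 56.8 to 81.2 FPKM elsewhere. KO replicate 2 also held 4 of 9 Y-linked genes above 0, and the other libraries held 0, although the mice are labelled female. The 5 keratinocyte genes summed to 3487 and 2736 FPKM in WT and to 7784 and 5002 FPKM in KO replicates 1 and 2. The 11 hair follicle genes summed to 141 and 122 FPKM in WT and to 564 and 706 FPKM in KO libraries, of which Krt15 alone made up 128 and 118 in WT and 225 and 670 in KO libraries. Group differences in the 8 genes that could be tested are therefore given with and without KO replicate 2, and the part of tissue makeup in them was not tested.

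**Figure D1:**
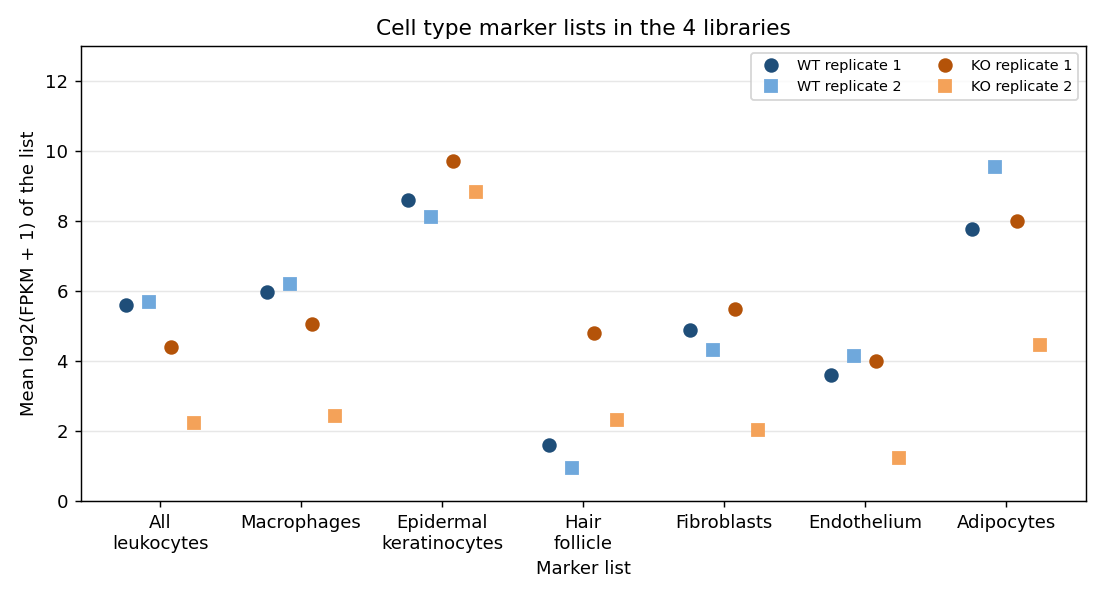
Mean log2(FPKM + 1) of cell type marker lists (y axis) in each of the 4 libraries, with circles for replicate 1 and squares for replicate 2. KO replicate 2 was the lowest library for leukocyte, macrophage, fibroblast, endothelial and adipocyte genes, and both KO libraries were above both WT libraries for keratinocyte and hair follicle genes.

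The 10 genes covered a wide range of levels. In WT skin the mean was 18.0 ± 9.60 FPKM for Epcam, 13.2 ± 11.7 for Ccl17, 12.0 ± 3.54 for Irf8, 8.56 ± 0.149 for Batf3, 5.10 ± 3.42 for Ccl22 and 4.40 ± 3.01 for Itgax (SD, n = 2 each). Cd207 followed with 1.92 ± 0.414 FPKM, Zbtb46 with 1.72 ± 0.635, Flt3 with 0.573 ± 0.119 and Xcr1 with 0.183 ± 0.0214 (SD, n = 2 each). Of the neighbours in this order, Irf8 and Batf3, Batf3 and Ccl22, Itgax and Cd207, Zbtb46 and Flt3, and Flt3 and Xcr1 had WT values that did not overlap. The other 4 neighbouring pairs overlapped. In KO skin Epcam was far above the rest, at 85.0 ± 23.3 FPKM, and the next highest gene was Irf8 at 4.24 ± 3.46 FPKM (SD, n = 2 each).

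**Figure D2:**
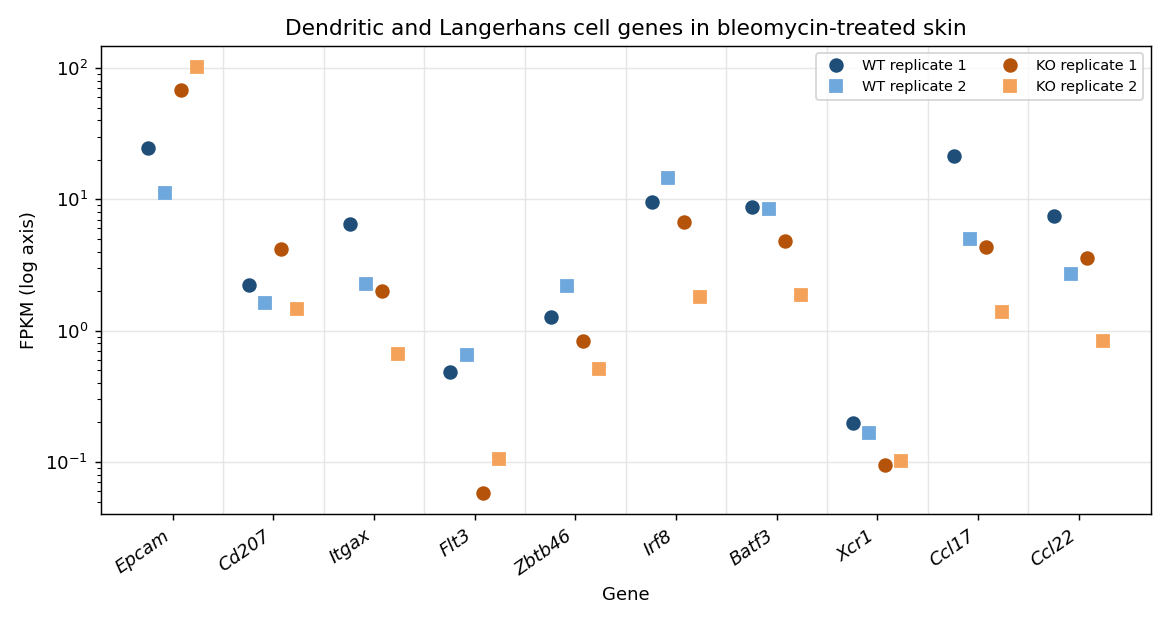
FPKM (log axis) of the 10 dendritic and Langerhans cell genes in each library, with circles for replicate 1 and squares for replicate 2. Epcam was higher in both KO libraries (68.6 and 101 FPKM) than in both WT libraries (24.8 and 11.2 FPKM), Cd207 and Ccl22 overlapped between the groups, and the other 7 genes were lower in both KO libraries.

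Of the 10 genes, 7 were lower in both KO libraries than in both WT libraries (Itgax, Flt3, Zbtb46, Irf8, Batf3, Xcr1 and Ccl17), 1 was higher in both (Epcam) and 2 overlapped (Cd207 and Ccl22). Among the 13027 genes that reached 1 FPKM in 2 or more libraries, the KO pair lay wholly below the WT pair in 20.5% and wholly above it in 35.3%, and 55.8% did not overlap in either direction. Of the 10 genes 8 passed this filter and were tested with limma on log2(FPKM + 1), while Flt3 and Xcr1 did not. Zbtb46 passed only through its WT values. A call needed a limma adjusted p under 0.05 and a log2 fold change beyond 1 in either direction. By this rule 0 of the 8 genes and 0 of all 13027 genes were called (0% of genes tested). At an unadjusted p under 0.05 with the same limit on the fold change, Irf8 and Batf3 were lower and Epcam was higher, against 4.14% of all tested genes lower and 6.16% higher. In all, 2230 genes had an unadjusted p under 0.05. The median log2 fold change of the 8 genes was -1.05, and that of all tested genes was 0.11. As the genes were chosen with earlier results of these data known, this and the shares that follow are a description only. The mean log2 value was lower in KO skin for 6 of the 8, against 41.4% of all tested genes, and the log2 fold change was under -1 in 4 (Itgax, Irf8, Batf3 and Ccl17) and above 1 in 1 (Epcam), against 6.59% and 7.18%. With median-ratio size factors the median of all genes was -0.01 and the split of genes at the unadjusted threshold moved from 802 higher and 539 lower to 616 higher and 700 lower, but 6 of the 8 genes were lower and 2 were higher under every scaling tried. Without KO replicate 2 again 6 of the 8 were lower and 2 higher, but the median of the 8 was -0.64 and 0 of the lower genes passed the unadjusted threshold. Without WT replicate 1 the median was likewise -0.64, with 0 such genes. With 2 libraries per group the exact two-sided permutation test of 1 gene cannot give a p below 0.333.

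**Figure D3:**
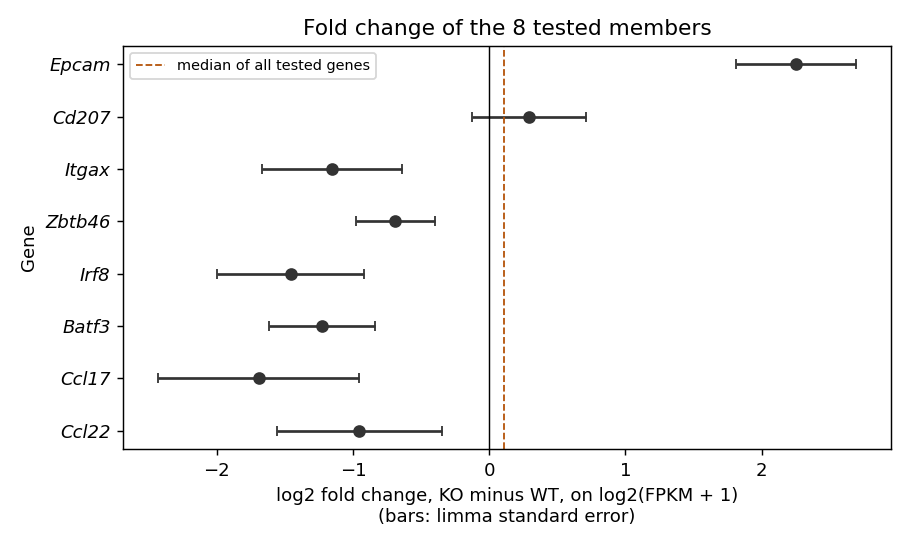
Log2 fold change (x axis, KO minus WT on log2(FPKM + 1)) of the 8 tested genes, with limma standard errors as bars and the median of all tested genes as a dashed line. Epcam stood at 2.25, Cd207 at 0.29, and the other 6 genes between -1.69 and -0.69.

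Of the pair of Langerhans cell genes, both were higher in KO replicate 1 than in either WT library, while in KO replicate 2 Epcam was above and Cd207 below both WT values. Cd207, the lectin that forms Birbeck granules (mm9 chromosome 6, bases 83621201 to 83627851), had 2.22 and 1.63 FPKM in the WT mice against 4.16 and 1.46 in the KO mice. KO replicate 1 was the highest library and KO replicate 2 the lowest, so the groups overlapped. The log2 fold change of Cd207 was 0.29 (standard error, SE, 0.42, limma adjusted p = 0.712). Dropping KO replicate 1 turned it to -0.24, and dropping KO replicate 2 made it 0.83. The values of Cd207 correspond to an estimated 28.6 to 86.9 fragments per library, from its single annotated transcript of 1530 bases and the steps in which low values rise.

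Epcam, on chromosome 17 from 88035319 to 88050467, had WT values of 24.8 and 11.2 FPKM and KO values of 68.6 and 101. Both KO libraries were above both WT libraries, and the ratio of the group means was 4.73. Its log2 fold change of 2.25 (SE 0.44, limma adjusted p = 0.248) was the greatest in size of the 8. Without KO replicate 1 it was 2.53 with an adjusted p of 0.0110 by limma, where 15.8% of all tested genes were called, and without KO replicate 2 it was 1.97 (adjusted p = 0.167). Cdh1 (E-cadherin), which joins Langerhans cells to keratinocytes and is made by both, had 20.5 and 10.2 FPKM in the WT mice against 44.2 and 66.6 in the KO mice. Cldn1, a tight junction protein that binds EpCAM, had 14.3 and 7.39 against 33.3 and 58.4 FPKM. Cldn7, the other claudin known to pair with EpCAM, was at most 0.491 FPKM in any library. A keratinocyte scale was set by the mean log2 level of Krt5, Krt14 and Trp63 in the same library. It left out Krt1 and Krt10 of the keratinocyte list, whose values in KO replicate 2 were below both WT values. On this scale Epcam stood at -3.34 and -4.21 in WT and at -2.95 and -2.65 in KO libraries. Its KO values were thus also above its WT values here, as in 1.21% of all tested genes. Cd207 stood at -6.34 and -6.42 in WT and at -6.70 and -8.03 in KO libraries on the same scale, so its KO values were below its WT values there, as were those of the other 8 genes. This was the common case on a scale set by higher keratinocyte genes, since 89.8% of all tested genes lay below in the same way. The keratinocyte list was higher in KO skin in 5 of its 5 tested genes, of which Krt1 and Krt10 overlapped between the groups, and the hair follicle list in 10 of 10. Both KO libraries were above both WT libraries in 3 keratinocyte and 7 hair follicle genes, against 35.3% of all tested genes. The medians of the keratinocyte and hair follicle lists were 1.11 and 2.35. The latter was 1.05 without KO replicate 1 and 4.19 when KO replicate 2 was left out. Of the hair follicle genes Krt28, Krt35 and Lgr5 passed the filter only through KO libraries, and Krt71, Krt25 and Krt27 were lower in KO replicate 2 than in WT replicate 1. None of the keratinocyte genes was at 0 in any library, while the hair follicle genes Krt25, Krt27, Krt35 and Krt73 were listed at 0 in WT replicate 2, and Krt25 also in KO replicate 2. Their part in the Epcam values was not tested.

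The Langerhans cell pair was set beside Itgax and Flt3, 2 of the dendritic cell surface genes with lower KO values. Xcr1, a further such gene, was left out. Shown are the 250 bases before the start of Cd207, Epcam, Itgax and Flt3. They were read 5′ to 3′ on the strand of the gene from mm9. Capitals mark GGAAGT, the core of sites for ETS factors such as PU.1, and TGANTCA, the AP-1 type site, on either strand (the reverse complement of the first reads ACTTCC).
Cd207 (chr6:83627852-83628101, minus strand): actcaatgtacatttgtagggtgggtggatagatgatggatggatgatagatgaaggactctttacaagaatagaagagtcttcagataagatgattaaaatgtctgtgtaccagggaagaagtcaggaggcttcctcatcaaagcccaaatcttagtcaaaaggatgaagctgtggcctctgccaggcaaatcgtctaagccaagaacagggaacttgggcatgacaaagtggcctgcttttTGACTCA
Epcam (chr17:88035069-88035318, plus strand): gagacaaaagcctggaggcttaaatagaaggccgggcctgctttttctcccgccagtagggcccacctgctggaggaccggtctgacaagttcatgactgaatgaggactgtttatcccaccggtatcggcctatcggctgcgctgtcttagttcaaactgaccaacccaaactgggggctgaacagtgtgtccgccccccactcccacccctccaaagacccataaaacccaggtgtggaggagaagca
Itgax (chr7:135272832-135273081, plus strand): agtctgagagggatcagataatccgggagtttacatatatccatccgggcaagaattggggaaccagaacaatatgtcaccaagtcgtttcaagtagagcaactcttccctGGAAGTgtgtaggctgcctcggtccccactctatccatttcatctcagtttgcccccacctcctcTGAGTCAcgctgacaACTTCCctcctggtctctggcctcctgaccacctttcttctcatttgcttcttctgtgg
Flt3 (chr5:148212066-148212315, minus strand): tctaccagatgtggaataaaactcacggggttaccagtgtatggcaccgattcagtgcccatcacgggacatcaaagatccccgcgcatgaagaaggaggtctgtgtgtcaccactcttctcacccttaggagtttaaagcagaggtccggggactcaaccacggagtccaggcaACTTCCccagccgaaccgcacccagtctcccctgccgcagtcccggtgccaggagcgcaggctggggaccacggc
The AP-1 type match of Cd207 fills bases 7 to 1 before its start, and Itgax holds 1 such match at bases 74 to 68 between its 2 ETS type matches. Among the 10 genes, 5 had a GGAAGT match in this window (Flt3, Itgax, Xcr1, Batf3 and Ccl22), against 20.2% of 20286 windows of the same length, and 2 had TGANTCA (Cd207 and Itgax), against 5.97%. Epcam had neither. NF-kB type sites, searched on both strands, were present in 6.36% of all windows and in 0 of the 10, and the interferon type motif GAAANNGAAA was present in 3.03% and in 0 of the 10. The GC content of the window ran from 38.8% in Xcr1 to 86.4% in Zbtb46, whose window was the only 1 of the 10 not matched in the RefSeq promoter table, with a median of 55.6% over all windows. A match describes letters in a window and is no evidence of binding.

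Itgax, Flt3 and Zbtb46, which mark conventional dendritic cells, were lower in both KO libraries. Itgax encodes CD11c, an integrin chain of dendritic cells that macrophages also carry, and lies on chromosome 7 from 135273082 to 135294171. It had WT values of 6.53 and 2.27 FPKM and KO values of 1.99 and 0.664, so WT replicate 2 and KO replicate 1 were close. Its log2 fold change of -1.15 (SE 0.51, limma adjusted p = 0.324) was -0.55 without WT replicate 1 and -1.75 without WT replicate 2. It was -0.73 without KO replicate 2. Itgb2, the beta chain that pairs with it, had 53.6 and 54.6 FPKM in the WT mice against 7.79 and 0.906 in the KO mice (log2 fold change -3.75, SE 0.73, limma adjusted p = 0.248).

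Flt3, the receptor through which Flt3 ligand sustains dendritic cells, lies on chromosome 5 from 148142317 to 148212065. It had WT values of 0.488 and 0.657 FPKM and KO values of 0.0585 and 0.105. Both KO values were below both WT values, and the WT mean was 6.999 times the KO mean. Such levels rest on few reads: with the longest transcript of 3951 bases, an estimated 33.5 and 37.1 fragments stood behind the WT values and 3.15 and 5.32 behind the KO values. With no filter on low values the log2 fold change was -0.54 (SE 0.09, limma adjusted p = 0.375 over 19663 genes), a size that the added 1 FPKM makes small. The ligand gene Flt3l had WT values of 3.12 and 3.80 FPKM and KO values of 2.94 and 1.86, with a log2 fold change of -0.41 (SE 0.28, limma adjusted p = 0.462).

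Zbtb46, a zinc finger factor of conventional dendritic cells that endothelial cells also make, lies on chromosome 2 from 181125591 to 181194131. It had 1.27 and 2.17 FPKM in the WT mice against 0.832 and 0.512 in the KO mice, with no overlap. Zbtb46 had a log2 fold change of -0.69 (SE 0.29, limma adjusted p = 0.306), which was -0.55 without KO replicate 2, -0.45 without WT replicate 2 and -1.23 with a pseudocount of 0.1. The 4 endothelial markers summed to 56.8 and 81.2 FPKM in the WT mice against 79.0 and 6.73 in the KO mice, and their part in the Zbtb46 values was not tested.

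The transcription factors of the type 1 lineage had higher levels than its surface receptor. Irf8, which is also made by monocytes, macrophages and B cells, lies on chromosome 8 from 123260258 to 123280592 and had 9.48 and 14.5 FPKM in WT against 6.69 and 1.80 FPKM in KO replicates 1 and 2. Irf8 had a log2 fold change of -1.46 (SE 0.54, limma adjusted p = 0.280). Batf3, an AP-1 family factor on chromosome 1 from 192922293 to 192932822, had nearly equal WT values of 8.67 and 8.46 FPKM and KO values of 4.802 and 1.88 FPKM. The log2 fold change of Batf3 was -1.23 (SE 0.39, limma adjusted p = 0.257). In both genes KO replicate 2 was the lowest library. Which cells made the Irf8 and Batf3 RNA was not tested. Without KO replicate 1, Irf8 had a log2 fold change of -2.19 (adjusted p = 0.00796) and Batf3 one of -1.73 (adjusted p = 0.0117), and both were called by limma, as were 15.8% of all tested genes. That fit has 1 KO library and assumes that it varies as the WT libraries do. Without KO replicate 2 the log2 fold changes were -0.73 for Irf8 and -0.72 for Batf3, and 0 of the 8 genes were called while 0.33% of all tested genes were.

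Xcr1, the receptor of the lymphocyte chemokine Xcl1 and the most selective mark of type 1 dendritic cells among the 10 genes, lies on chromosome 9 from 123761436 to 123771246. It had WT values of 0.198 and 0.168 FPKM and KO values of 0.0948 and 0.102. The groups did not overlap, but with 1 transcript of 4453 bases these values correspond to an estimated 15.3 and 10.7 fragments in WT and 5.76 and 5.83 in KO libraries. With no filter its log2 fold change was -0.11 (SE 0.05, limma adjusted p = 0.424). Clec9a, another receptor of this subset, was also under 1 FPKM, with 0.425 and 0.355 FPKM in the WT mice against 0.370 and 0.0266 in the KO mice. Xcl1 itself had WT values of 2.68 and 1.41 FPKM and KO values of 2.96 and 0.291, so the groups overlapped.

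The chemokine pair varied widely between WT libraries. Ccl22 and Ccl17 lie 59064 bases apart on chromosome 8, Ccl22 from 97269584 to 97275288 and Ccl17 from 97334353 to 97335936, with Cx3cl1 as the gene of the table between them. Ccl17 had 21.4 FPKM in WT replicate 1 and 4.97 in WT replicate 2, and 4.37 and 1.39 FPKM in KO replicates 1 and 2. WT replicate 2 and KO replicate 1 thus differed by less than the WT libraries did from each other. Its log2 fold change of -1.69 (SE 0.74, limma adjusted p = 0.317) was -0.74 without WT replicate 1 and -2.65 without WT replicate 2. It was -1.11 without KO replicate 2. Ccl22 had 7.52 and 2.68 FPKM in the WT mice against 3.58 and 0.828 in the KO mice, so KO replicate 1 lay between the WT values. Its log2 fold change was -0.95 (SE 0.61, limma adjusted p = 0.434), and leaving out 1 library gave -0.35 (WT replicate 1), -1.56 (WT replicate 2), -1.62 (KO replicate 1) and -0.29 (KO replicate 2). The receptor Ccr4 was low and not tested, with WT values of 0.452 and 0.302 FPKM and KO values of 1.41 and 0.480, where both KO values were above both WT values.

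The members were also set beside Ptprc (CD45), which all leukocytes carry and which had 10.6 and 8.93 FPKM in the WT mice against 3.98 and 1.00 in the KO mice. On this scale, the FPKM of a gene divided by that of Ptprc in the same library, 93.3% of all tested genes were higher in both KO libraries, so a higher ratio is the common case. Of the 10 genes 6 had higher ratios in both KO libraries, and 0 had lower ratios in both, which held for 0.775% of all tested genes. Cd207 had ratios of 0.209 and 0.183 in WT and of 1.05 and 1.45 in KO libraries. Irf8 had 0.892 and 1.62 against 1.68 and 1.79, and Batf3 had 0.816 and 0.948 against 1.21 and 1.88. The 4 genes whose ratios overlapped were Itgax, Zbtb46, Flt3 and Ccl17. For Itgax the ratios were 0.614 and 0.254 in WT and 0.4996 and 0.662 in KO libraries, and for Ccl17 they were 2.02 and 0.556 against 1.10 and 1.38. Over all 5 leukocyte genes the mean log2 level was lower in KO skin by 2.33 (KO minus WT, -2.33). Relative to it the median tested gene was 2.45 log2 units higher in KO skin, Epcam was 4.58 higher, Cd207 2.63, Xcr1 2.23, Flt3 1.80, Zbtb46 1.64, Ccl22 1.38, Itgax 1.18, Batf3 1.11, Irf8 0.87 and Ccl17 0.64. On this scale 8 of the 10 genes were higher in both KO libraries, Flt3 and Zbtb46 among them, and Itgax and Ccl17 overlapped, while 96.5% of all tested genes were higher and 0.169% lower in both. The values of Flt3 and Xcr1 are set largely by the added 1 FPKM. Leaving out 1 library at a time gave 2.08 to 3.17 for Cd207, 3.22 to 5.95 for Epcam, 1.14 to 3.31 for Xcr1, 0.68 to 2.91 for Flt3, 0.70 to 2.59 for Zbtb46, 0.74 to 2.03 for Ccl22, 0.52 to 1.84 for Itgax, 0.53 to 1.69 for Batf3, 0.52 to 1.23 for Irf8 and -0.36 to 1.64 for Ccl17, which was -0.36 without WT replicate 2. Each of these exact permutation tests gave a p of 0.333 or more.

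**Figure D4:**
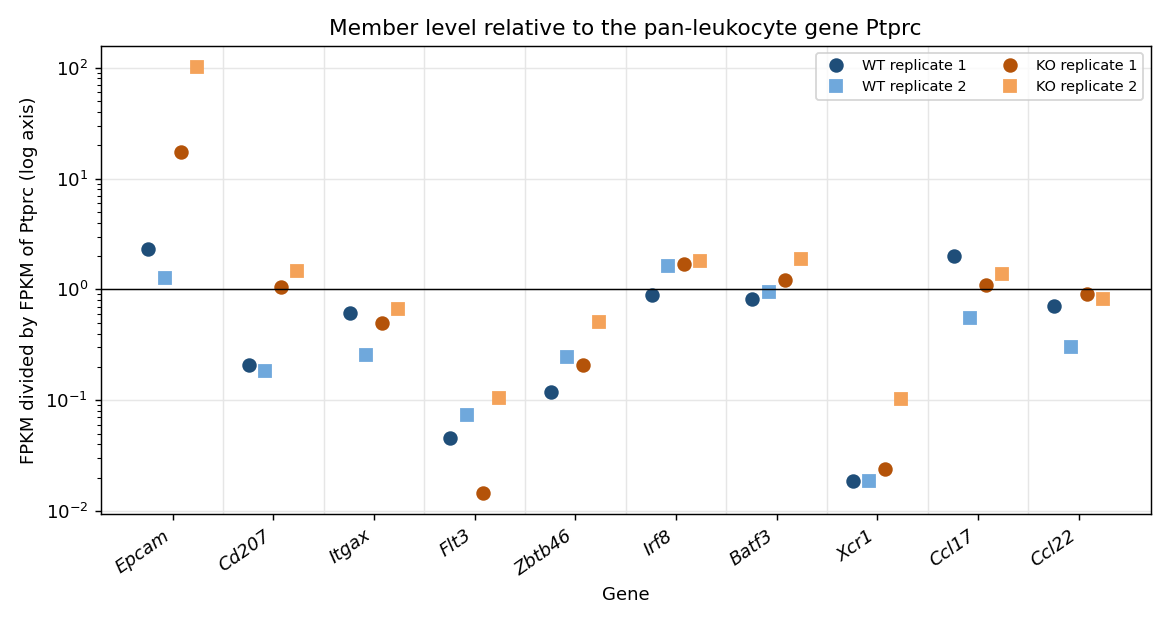
FPKM of each gene divided by the FPKM of the pan-leukocyte gene Ptprc in the same library (log axis), with circles for replicate 1 and squares for replicate 2. The KO ratios of Cd207 (1.05 and 1.45) were above its WT ratios (0.209 and 0.183), while Itgax, Zbtb46, Flt3 and Ccl17 overlapped between the groups.

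Other genes of the dendritic cell subsets were described from lists that do not hold the 10 genes. In each list 0 genes passed the adjusted threshold by limma. Some genes stand in more than 1 list. The list of type 2 conventional and monocyte-derived dendritic cells had the lowest median of them: 8 of its 9 tested genes had lower and 1 had higher mean log2 values in KO skin, and the median log2 fold change was -1.09 against 0.11 over all tested genes. The KO pair lay wholly below the WT pair in 6 of the 9, against 20.5% of all tested genes, and the median became -0.56 on dropping KO replicate 2 and -1.71 on dropping KO replicate 1. Cd209a (DC-SIGN related lectin), a marker of monocyte-derived dendritic cells, had WT values of 3.54 and 3.28 FPKM and KO values of 1.67 and 0.350 (log2 fold change -1.21, SE 0.39, limma adjusted p = 0.257). Mgl2 (CD301b) had 11.2 and 4.87 against 4.74 and 1.88 FPKM, so WT replicate 2 and KO replicate 1 nearly met. Itgam (CD11b), which macrophages and neutrophils share, had the most negative log2 fold change of the list (-3.48), with 37.5 and 35.7 FPKM in the WT mice against 6.30 and 0.550 in the KO mice. The higher gene was Klf4, which keratinocytes also make, with 41.2 and 23.9 against 63.0 and 58.0 FPKM. Of the list 4 genes (Cd209a, Sirpa, Itgam and Clec4a1) had an unadjusted limma p under 0.05 with a log2 fold change under -1. This held for 4.14% of all tested genes. The macrophage list had a lower median, -2.59, and the part of macrophages in the values of the dendritic cell lists was not tested.

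In the list of mature migratory dendritic cells 9 of 12 tested genes were lower and 3 were higher, with a median of -0.50. The median was -0.51 without KO replicate 2, -0.89 without KO replicate 1, -0.76 without WT replicate 2 and -0.31 with no filter on low values. Cd80 had WT values of 3.76 and 3.98 FPKM and KO values of 0.873 and 0.594 (log2 fold change -1.49, SE 0.24, limma adjusted p = 0.248). Cd40, the receptor of T cell help, had 4.17 and 5.68 against 1.65 and 0.401 FPKM. Ccr7, which guides dendritic cells to lymph nodes, had 2.73 and 1.58 against 0.463 and 0.129 FPKM, and Cd83 had 5.45 and 3.97 against 2.01 and 0.455 FPKM. In these 4 genes and in Cd86 and Relb the KO pair lay wholly below the WT pair (20.5% of all tested genes), and 5 genes of the list had an unadjusted p under 0.05 with a log2 fold change under -1 (Ccr7, Cd83, Cd40, Cd80 and Cd86), against 4.14% of all. Of these Ccr7 and Cd80 reached 1 FPKM only in WT libraries, so they passed the filter through the group where they were high. Other genes of the same state did not share this: Cacnb3 had 7.54 and 5.66 against 8.82 and 8.93 FPKM, and the actin bundling gene Fscn1 had 22.9 and 19.3 against 24.0 and 6.65 FPKM.

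The type 1 list had 6 lower and 2 higher genes of 8 tested and a median of -0.14. That median was -0.0225 without KO replicate 2, -0.29 without WT replicate 2 and -0.26 with median-ratio size factors. Naaa, an acid amidase, had 28.7 and 34.9 FPKM in the WT mice against 16.1 and 6.90 in the KO mice (log2 fold change -1.49, SE 0.42, limma adjusted p = 0.248), and Wdfy4, needed for cross-presentation and over 1 FPKM only in WT libraries, had 1.07 and 1.53 against 0.542 and 0.182 FPKM. Cadm1, which is not restricted to these cells in skin, had 2.98 and 2.26 against 4.55 and 5.99 FPKM. The Langerhans cell list was split, with 5 of 10 tested genes lower and 5 higher and a median of 0.01. Its median was 0.32 without WT replicate 1 and -0.17 without WT replicate 2. Il34, the keratinocyte factor that maintains Langerhans cells, had WT values of 8.62 and 7.82 FPKM and KO values of 11.9 and 11.6 (log2 fold change 0.47, SE 0.23, limma adjusted p = 0.349). Its receptor gene Csf1r, which macrophages share, had 34.6 and 46.7 against 16.3 and 1.90 FPKM. Ahr, the aryl hydrocarbon receptor, had 3.16 and 2.44 against 5.39 and 14.0 FPKM.

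**Figure D5:**
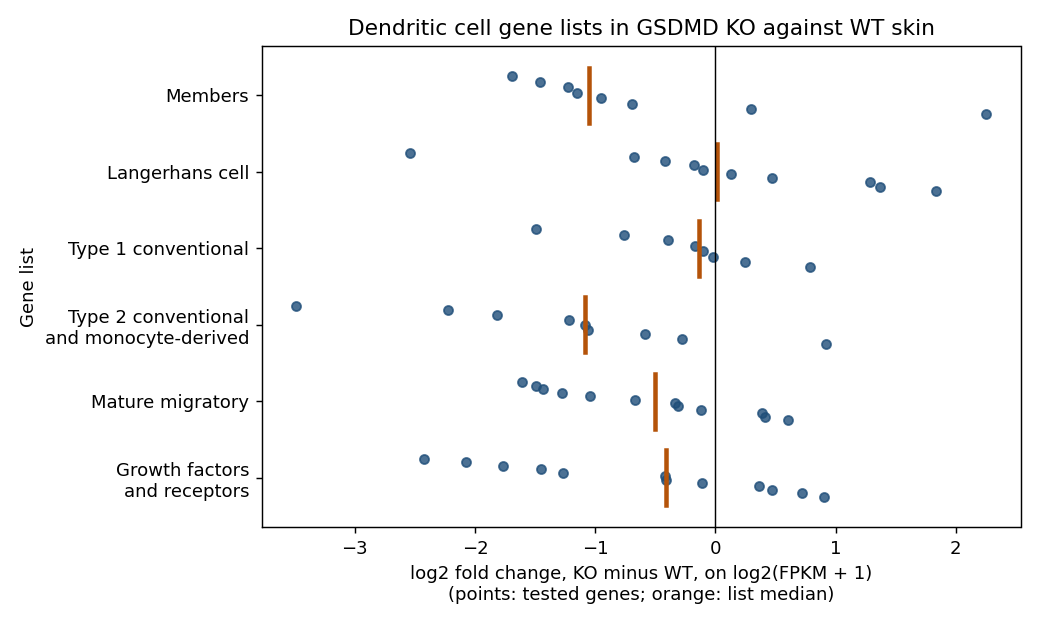
Log2 fold changes (x axis, KO minus WT on log2(FPKM + 1)) of the tested genes in the member list and 5 dendritic cell lists, one point per gene, with the list median as an orange bar. The medians were -1.05 for the members, 0.01 for the Langerhans cell list, -0.14 for type 1, -1.09 for type 2, -0.50 for mature migratory cells and -0.41 for growth factors and receptors.

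Among 12 tested growth factors, alarmins and receptors 8 were lower and 4 higher, with a median of -0.41. Of these Ccl20 passed the filter only through KO and Cx3cr1 only through WT libraries. The median became -0.17 on dropping KO replicate 2 and -0.85 on dropping KO replicate 1. The GM-CSF receptor chain Csf2ra had 19.6 and 28.8 FPKM in the WT mice against 7.45 and 3.10 in the KO mice (log2 fold change -2.07, SE 0.43, limma adjusted p = 0.248). The monocyte receptor Ccr2 had 27.0 and 17.8 against 9.77 and 0.708 FPKM. The epithelial cytokine Tslp had 1.73 and 0.568 against 2.94 and 1.95 FPKM, whereas its receptor chain Crlf2 had 13.2 and 20.3 against 7.97 and 3.49 FPKM. Ccl20, the keratinocyte chemokine for Langerhans cell precursors, had 0.779 and 0.225 against 1.83 and 1.71 FPKM. Among the partners of the 10 genes 7 of 9 tested were lower and 2 higher, with a median of -0.41. This median was -0.18 without KO replicate 2, -0.92 without KO replicate 1, -0.70 without WT replicate 2 and -0.83 with a pseudocount of 0.1. Of these genes Spi1 (PU.1), which pairs with Irf8 on DNA, had WT values of 37.0 and 49.8 FPKM and KO values of 15.9 and 4.65 (log2 fold change -2.17, SE 0.56, limma adjusted p = 0.248), and Batf, a close relative of Batf3, had 5.06 and 9.63 against 2.15 and 0.773 FPKM. Of 8 plasmacytoid dendritic cell genes 3 were tested, with 1 lower and 2 higher, and the most selective of the list, Siglech, was listed at 0 in all 4 libraries.

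Of 10 tested macrophage genes 10 had lower mean log2 values in KO skin, against 41.4% of all tested genes. In 9 of them the KO pair lay wholly below the WT pair, against 20.5% of all, the exception being Mrc1. The median log2 fold change of these macrophage genes was -2.59, and it was -1.09 without KO replicate 2. Their summed level was 2078 and 2105 FPKM in the WT mice against 869 and 91.8 in the KO mice, and 0 of the 10 were at 0 in any library. Itgax, Irf8 and Ccl22 are made by macrophages too, and the part of these cells in the lower values was not tested. B cells, which also make Irf8, were low throughout, with 5 marker genes summing to 0.419 to 3.19 FPKM. For Epcam, Irf8 and Ccl17, the members with the highest means over the 4 libraries, the tested genes with the most similar profiles were named by the Euclidean distance between centred log2(FPKM + 1) values over these 4 libraries. Epcam was nearest to Sqle (distance 0.07), Nrarp (0.10) and Stmn1 (0.16). Irf8 was nearest to Esyt1 (0.06), Lgmn (0.07), a lysosomal protease gene, and Slc28a2 (0.09). For Ccl17 the nearest were Mest (0.39), Clec7a (0.51), the beta-glucan receptor Dectin-1, and C1qtnf3 (0.55). A profile of 4 values among 13027 genes finds close matches readily, and this is a description only.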

How the data were processed

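Skin RNA after BLM treatment, in 2 WT and 2 GSDMD KO libraries, was sequenced as paired ends. According to the methods and the submitters' processing notes, alignment by the authors was to mm9, and the tools named are HISAT2 2.0.1 and StringTie 2.0.6. The deposited table, named as counts, holds FPKM values that the authors had divided by gene length and depth: 99.993% of values above 0 are not whole. The program that made them is not given in the sources used here. The methods name featureCounts and DESeq2, but the values are not counts, so no count test was run. Library sums were 448544 to 462251 FPKM. Low values of 2710 single-transcript genes of at least 2 kb rise in steps, which put 1 fragment on 1 kb at 0.0576, 0.0699, 0.0733 and 0.0781 FPKM in WT replicates 1 and 2 and KO replicates 1 and 2, so the KO libraries were shallower. Fragment numbers are rough estimates, given with no interval.

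The filter kept genes that reached 1 FPKM in 2 or more libraries, and limma (version 3.58.1, under R 4.3.3) was run on log2(FPKM + 1), with genotype as the only term, a mean-variance trend and Benjamini-Hochberg adjustment. Fold changes on this scale understate the change of low genes. No source used here says whether the libraries of a group are separate experiments, so p-values measure only the spread between these samples, which may be technical in part. Tested on simulated data for this comparison with 200 of 13027 genes changed by 2 or 3 log2 units, limma called 73 genes, 72 of them changed. With none changed it called 0. The simulated noise was drawn for each gene on its own, with the same spread in both groups. In the data KO replicate 2 differed in many genes together, so these rates need not hold for them. Same-numbered WT and KO libraries had deviations correlated at -0.20, no source pairs them, and they were treated as unpaired.

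The members and all gene lists were chosen with earlier results of these data known. Named genes were the 10 members, Gsdmd, genes of a list where it is described, and the 3 nearest profiles of the 3 members with the highest means. Gene symbols and loci came from the deposited table, whose starts count from 0 and were raised by 1. Strand, exons and transcript lengths came from the GENCODE annotation of mm9, in which no exon of the 10 genes overlaps another gene. Windows were read from the mm9 genome. Alternatives were other pseudocounts, filters and scalings, no trend, the replicate block and leaving out each library. The crossed block and leaving out libraries from the leukocyte comparison were added after the data had been seen. The keratinocyte scale was also not among the planned comparisons. Sequence work used Python 3.11.15 with pandas 2.3.3.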

Additional observations from a re-analysis of the deposited data

How the results depend on the processing

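Flt3 and Xcr1 rest on few fragments, and KO libraries were the shallower ones. The 8 tested genes kept their direction under every pseudocount, filter, scaling and trend setting and with the replicate block, and 0 of them was called there. Leaving out libraries moved most: over all genes, 0 to 2058 genes were called, where dropping KO replicate 2 gave 43 and dropping KO replicate 1 gave 2058, and 508 to 3017 genes passed the unadjusted threshold, 242 to 1605 of them lower and 266 to 1412 higher. Cd207 ran from -0.24 to 0.83 over these refits and reversed to -0.24 without KO replicate 1, where Epcam (2.53), Irf8 (-2.19), Batf3 (-1.73) and Gsdmd (-2.38) were called. The cause was not tested. The numbers do not pair the samples. With the replicate block 686 lower and 907 higher genes passed the unadjusted threshold, among them 4 lower members against 2 without it, and 0 genes were called. With the crossed pairing 681 lower and 819 higher genes passed.

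The median of the 8 genes ran from -1.60 to -0.64 when 1 library was left out. In the same refits the medians ran from -0.17 to 0.32 for the Langerhans cell list, from -0.29 to -0.0225 for type 1 dendritic cells, from -0.89 to -0.49 for mature migratory cells, from -3.39 to -1.21 for leukocytes, from -3.74 to -1.09 for macrophages, from -0.23 to 0.21 for T cells, from 1.05 to 4.19 for the hair follicle, from 0.79 to 3.32 for the sebaceous gland, from -2.69 to 0.10 for endothelium, from -4.39 to -0.70 for adipocytes and from -1.16 to -0.71 for skeletal muscle. Upper-quartile and median-ratio scaling gave -0.23 and -0.26 for type 1 dendritic cells and -0.86 and -0.89 for skeletal muscle. With no filter the mature migratory list had -0.31 and T cells -0.14, and with a filter of 0.5 FPKM T cells had -0.18, since more genes were tested. Relative to the leukocyte genes, Flt3 was 0.67 with a pseudocount of 0.1, and Irf8 was 0.31 with Ptprc alone.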

Other observations

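Mast cells also reside in the dermis, and 5 of their 5 tested genes had lower mean log2 values in KO skin, with a median of -0.81 that turned to 0.59 without KO replicate 2. The protease gene Mcpt4 had 24.7 and 21.7 FPKM in WT, 37.1 FPKM in KO replicate 1 and 3.997 FPKM in KO replicate 2, and 5 mast cell genes summed to 67.7 and 70.7 FPKM in the WT mice against 99.7 and 11.2 in the KO mice. T cell genes were low in every library, with 7 genes summing to 8.82 and 8.07 FPKM in the WT mice against 10.1 and 5.33 in the KO mice, and 3 of the 4 tested genes had higher mean log2 values in KO skin. The T cell receptor component Cd3g had WT values of 1.86 and 2.19 FPKM and KO values of 3.81 and 1.31, and as in Cd207, KO replicate 1 was the highest library and KO replicate 2 the lowest. The neutrophil list had 6 of 6 tested genes with lower mean log2 values in KO skin, against 41.4% of all tested genes. In 5 of the 6 the KO pair lay wholly below the WT pair, against 20.5% of all, while Cxcr2 overlapped. The median log2 fold change of the list was -1.46. Of 5 lymph node genes 2 were tested, Cxcl13 and Ccl21a, with 1 lower and 1 higher mean log2 value in KO skin. Cxcl13, which attracts B cells, had 2.44 and 3.79 FPKM in the WT mice against 12.96 and 0.0790 in the KO mice, and Ccl21a, a ligand of Ccr7, had 1.504 and 1.44 against 7.34 and 0.215 FPKM. The groups overlapped in these 4 named genes.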
